A study of Mus musculus with 9 samples.

Results

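Cholesterol 25-hydroxylase (Ch25h) was measured together with 36 genes of sterol synthesis, fatty acid synthesis and their control in cultured mouse synovial fibroblasts (SFs), the cells that line the joint. The 37 genes were found by name among the 49548 genes of the deposited tables, and all 37 were present in both tables and above 0 in every library. Ch25h was chosen by its normalized counts in these libraries, so its values are given as a description with no test. The other members were chosen for their place in the pathway, with earlier results of these data known, and the question put to them was whether the synthesis genes move against Ch25h. SFs came from ankle joints of 8-week-old mice on a CBA C57BL/6J background, either wild type (WT) or hTNFtg, which carry a human TNF transgene and develop polyarthritis. CD45+ cells were depleted at passage 1. The 3 groups of 3 libraries were untreated WT SFs, untreated hTNFtg SFs, and hTNFtg SFs treated with infliximab, an antibody against TNF, at 1 µg/mL for 48 hours. The labels give no treatment for the first 2 groups, where the methods describe vehicle, and the human transgene itself was not analysed here.

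Cells make cholesterol from acetyl-CoA through the mevalonate steps, through squalene, and through the long series of enzymes after lanosterol. The transcription factor SREBP2 drives these genes when membranes are low in sterol, and SREBP1 does the same for fatty acid genes. Both are held in the endoplasmic reticulum by SCAP and the INSIG proteins, and 25-hydroxycholesterol, the oxysterol that Ch25h makes, binds INSIG and strengthens that hold. Oxysterols are also ligands of the liver X receptors (LXRs), which switch on cholesterol export through Abca1 and Abcg1 and raise Mylip, a ubiquitin ligase. Ch25h is known as an inflammatory gene, strongly induced in macrophages.

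Promoter windows from RefSeq (GRCm38.p6), each of 300 bases from 250 before to 50 after the start of transcription, were at hand for 29 of the 37 members. The 4 shown here belong to Ch25h, to Hmgcs1, the sterol synthesis gene with the lowest log2 fold change in hTNFtg SFs, and to Abca1 and Elovl6, the members that passed the rule for changed genes in hTNFtg versus WT SFs. They are written 5′ to 3′ on the strand of the gene. The window of Ch25h is chr19:34475099-34475398 on the minus strand, that of Hmgcs1 chr13:119690101-119690400 on the plus strand, that of Abca1 chr4:53159846-53160145 on the minus strand, and that of Elovl6 chr3:129532136-129532435 on the plus strand. Capitals mark the cAMP response element TGACGTCA in Ch25h, a match to the sterol regulatory element TCACNCCAC and the CCAAT boxes (ATTGG on the other strand) in Hmgcs1, and the E-box CACGTG and the LXR direct repeat with its 4-base spacer in Abca1. None of these motifs was found in the window of Elovl6.
Ch25h: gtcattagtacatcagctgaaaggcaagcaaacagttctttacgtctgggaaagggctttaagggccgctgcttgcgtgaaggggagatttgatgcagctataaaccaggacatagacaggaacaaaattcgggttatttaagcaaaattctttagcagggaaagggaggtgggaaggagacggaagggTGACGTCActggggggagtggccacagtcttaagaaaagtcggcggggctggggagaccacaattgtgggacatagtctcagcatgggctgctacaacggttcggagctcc
Hmgcs1: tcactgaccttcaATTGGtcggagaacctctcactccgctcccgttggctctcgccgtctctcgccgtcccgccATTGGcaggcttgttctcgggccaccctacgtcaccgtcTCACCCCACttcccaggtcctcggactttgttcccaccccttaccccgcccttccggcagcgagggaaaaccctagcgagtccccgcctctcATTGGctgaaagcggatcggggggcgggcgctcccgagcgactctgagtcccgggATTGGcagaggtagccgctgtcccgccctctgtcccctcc
Abca1: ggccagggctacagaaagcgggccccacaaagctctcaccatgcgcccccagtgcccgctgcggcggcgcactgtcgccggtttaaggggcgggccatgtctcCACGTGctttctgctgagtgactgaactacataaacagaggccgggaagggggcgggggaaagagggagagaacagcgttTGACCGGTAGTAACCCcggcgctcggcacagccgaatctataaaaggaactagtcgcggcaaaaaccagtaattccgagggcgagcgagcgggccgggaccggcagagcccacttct
Elovl6: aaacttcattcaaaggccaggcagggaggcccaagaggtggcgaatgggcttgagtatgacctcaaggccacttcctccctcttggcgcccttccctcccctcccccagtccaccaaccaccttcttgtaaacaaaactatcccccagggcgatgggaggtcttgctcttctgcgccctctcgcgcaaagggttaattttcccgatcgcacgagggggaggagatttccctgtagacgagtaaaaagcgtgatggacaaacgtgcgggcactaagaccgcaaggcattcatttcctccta

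Motifs were searched on both strands and are letters only, not measured binding sites. CCAAT, the box of the SREBP partner NF-Y, was present in 14 of the 15 sterol synthesis genes with a window (93.3%) and in 41.1% of all 27025 genes with one. TCACNCCAC was found in 1 of the 29 members, Hmgcs1, where it began 137 bases before the start, and in 1.44% of all genes. The LXR repeat, 2 degenerate half-sites in direct order, was present in Abca1, Fasn and Srebf1, 3 of 29 members against 0.241% of all genes. In Abca1 it began 67 bases before the start. TGACGTCA was in Ch25h alone among the members (61 bases before the start) and in 2.03% of all genes. CACGTG was present in 6 of 29 members (8.09% of all genes) and the NF-kB consensus likewise in 6 of 29 (9.55% of all genes), neither of them in Ch25h. The patterns for TGACGTCA and the LXR repeat were written after these sequences had been read.

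Values are normalized counts of 3′ mRNA sequencing, in which a transcript is read near its 3′ end. Libraries differed in depth. About 613349 reads stood behind hTNFtg replicate 1 and between 3829181 and 9015574 behind the other 8, and 1 read was worth 6.23 normalized counts in hTNFtg replicate 1 and 0.534 to 1.11 elsewhere. The median member had 28 reads in hTNFtg replicate 1 and 206.5 in the other 8 libraries. A count of 3 reads, taken as the floor for counting error, corresponded to 18.7 normalized counts in that library. Fibroblast markers were high throughout, with a summed normalized count, mostly from Col1a1 and Col1a2, of 31815 to 38867 in WT, 28558 to 32928 in hTNFtg and 26210 to 32276 in infliximab-treated SFs, while the mean of Pdpn in hTNFtg was 4.42 times that in WT. All 8 macrophage markers were above 0 in 1 or more libraries of every group. Their sum was 178 to 644 in WT, 3057 to 6277 in hTNFtg and 1988 to 4071 with infliximab. Lyz2 was the largest single part of it in every hTNFtg and infliximab library. Ptprc, which encodes CD45, stood at 0 to 3 in WT, 9 to 31 in hTNFtg and 8 to 28 with infliximab. It was over the floor of 3 reads in 0 WT libraries. Of the 6 adipocyte markers, Cidec and Lep were at 0 in every library, Adipoq was above 0 in WT replicate 3 only, at 5, and Fabp4 carried the sum, which was 366 to 445 in WT, 68 to 442 in hTNFtg and 127 to 221 with infliximab. Endothelial markers summed to at most 6, and keratinocyte and sebocyte markers to at most 2. The 6 hepatocyte markers summed to 39 to 176 in 8 libraries and to 784 in infliximab replicate 3. In bulk samples such as these, more cells of a type and more RNA per cell cannot be told apart.

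Ch25h was low in WT SFs and abundant in hTNFtg SFs. The gene lies at chr19:34473786-34475135 (mm10, minus strand). Its normalized counts were 2, 38 and 11 in WT replicates 1, 2 and 3, 486, 354 and 270 in untreated hTNFtg, and 141, 141 and 196 with infliximab. No library of one group reached the range of another. The mean was 17 ± 18.7 (SD, n = 3) in WT, 370 ± 108.9 (SD, n = 3) in hTNFtg and 159.3 ± 31.8 (SD, n = 3) in infliximab-treated SFs, so that hTNFtg SFs stood 21.8 times above WT and infliximab-treated SFs 9.37 times above WT. On the scale of log2(normalized count + 1), the difference was 5.01 (standard error, SE, 0.73) between hTNFtg and WT, -1.19 (SE 0.31) between infliximab-treated and untreated hTNFtg, and 3.82 (SE 0.74) between infliximab-treated hTNFtg and WT. WT replicate 1 had only 2 reads on the gene, and with each library left out in turn the difference from WT ranged from 4.06 to 5.91 in hTNFtg and from 2.87 to 4.72 in infliximab-treated SFs, in both lowest without WT replicate 1 and highest without WT replicate 2. Macrophage markers were higher in the same libraries as Ch25h, with Lyz2 at 5356, 2284 and 2356 in hTNFtg replicates 1, 2 and 3 against 43 to 277 in WT. Their part in the levels of Ch25h was not tested.

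**Figure D1:**
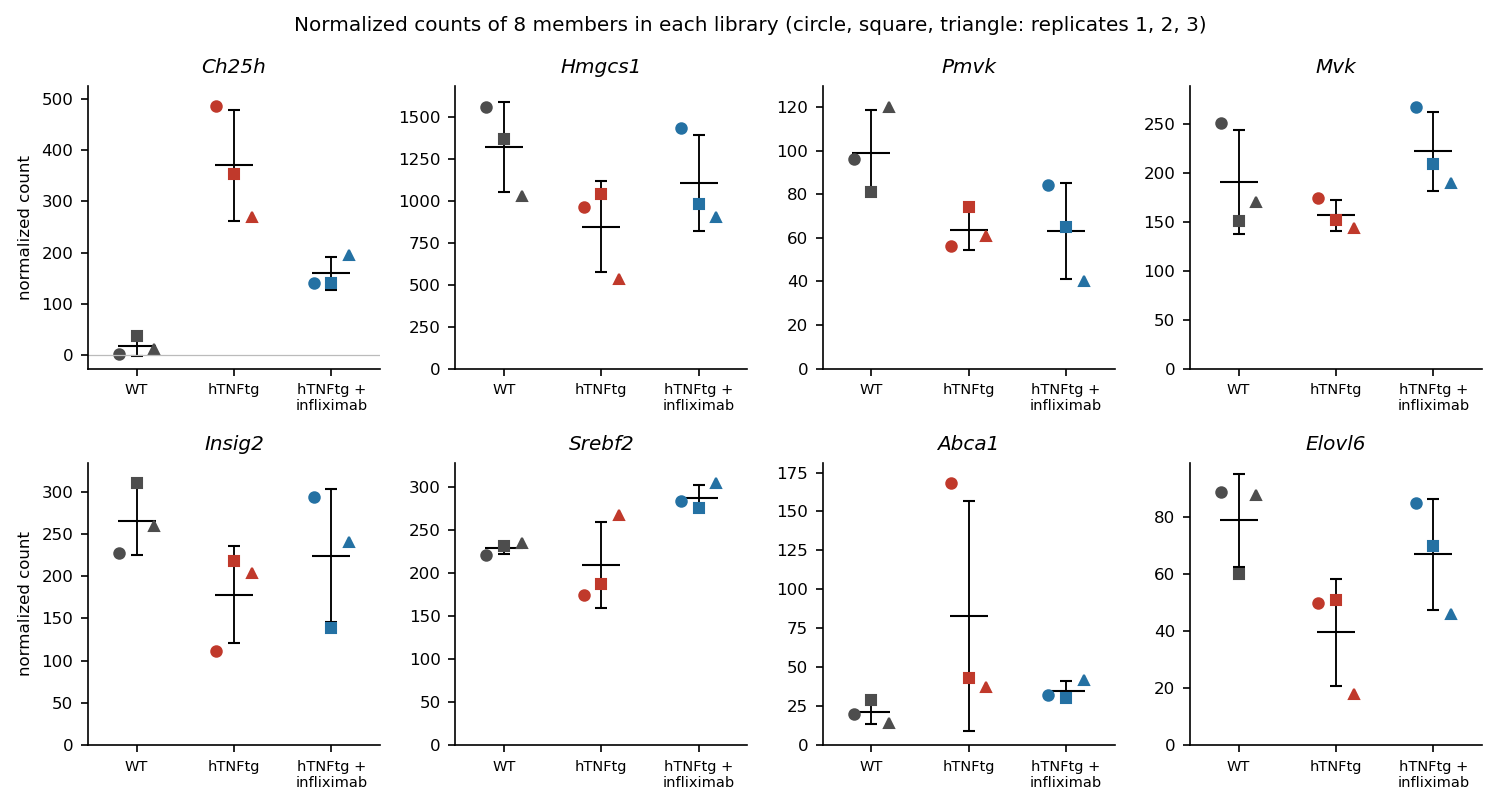
Normalized counts of 8 members in each of the 9 libraries. Circles, squares and triangles are replicates 1, 2 and 3, the horizontal bar is the group mean and the error bar 1 SD (n = 3 per group). The groups of Ch25h do not overlap, whereas hTNFtg and infliximab-treated SFs overlap for Hmgcs1, Pmvk, Insig2, Abca1 and Elovl6.

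The 36 other members were compared between groups with limma. A gene was called at an unadjusted P under 0.05 and a change of 1 or more in either direction on the log2 scale. In hTNFtg versus WT SFs, 1 member was raised by this rule (Abca1), where 3.35% of the 28522 genes tested were raised, and 1 was lowered (Elovl6), where 3.04% of all genes were. After limma's P values were adjusted over all genes (Benjamini-Hochberg), 0 members and 0.48% of all genes fell under 0.05. An unadjusted P under 0.05 was reached by 2 members and by 7.72% of all genes, and edgeR, run on approximate reads, gave 2 members and 10.2% of all genes an unadjusted P under 0.05 and 1 member and 3.23% of all genes an adjusted p under 0.05. The groups did not overlap for 4 of the 36 members (Abca1 above, Pmvk, Insig2 and Elovl6 below), where this held for 11.4% of all genes. None of these shares of members lay above that of all genes. Among the 13634 genes with a mean normalized count of 10 or more, 1603 had an unadjusted P under 0.05 by limma. Of these genes, 1284 had all hTNFtg libraries above WT and 1256 had all below. The p-values reflect the spread between 3 biological replicates per group. That spread also holds counting error, which was not separated, and hTNFtg replicate 1 had the fewest reads.

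Among the 18 sterol synthesis genes, 0 passed the rule and 0 reached an unadjusted P under 0.05 in limma's test of hTNFtg versus WT SFs, and edgeR gave 0 of the 18 an adjusted p under 0.05. Of these genes 13 had a negative log2 fold change, 1 (Dhcr7) stood at 0.00 and 4 were above 0, with a median of -0.24 and a range of -0.68 to 0.47, beside a median of -0.07 and 54.94% negative among genes whose mean normalized count was 10 or more. The median SE was 0.35. The 95% confidence interval excluded a fall of 1 on the log2 scale for 8 of the 18 and a rise of that size for 15 of the 18.

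The mevalonate genes leaned to the lower side without passing the rule. All 7 had a negative log2 fold change in hTNFtg versus WT SFs, from -0.07 for Acat2 to -0.68 for Hmgcs1, with a median of -0.37. The sign held under every scaling tried, but Acat2, Idi1 and Fdps turned positive when single libraries were left out (up to 0.11, 0.06 and 0.24), and Fdps also with array quality weights (0.23). Hmgcs1, which makes HMG-CoA and lies at chr13:119690462-119708086 on the plus strand, stood at 1557, 1367 and 1028 in WT replicates 1, 2 and 3, at 959, 1037 and 533 in hTNFtg and at 1431, 978 and 904 with infliximab. WT and hTNFtg overlapped by a single pair of libraries, and the difference of -0.68 (SE 0.35) had an adjusted p of 0.726 in limma's test. Pmvk, the kinase that adds the second phosphate to mevalonate, was 96, 81 and 120 in WT and 56, 74 and 61 in hTNFtg, or -0.62 on the log2 scale (SE 0.33, adjusted p = 0.726 by limma). Its WT libraries all lay above its hTNFtg libraries, and infliximab-treated SFs, at 84, 65 and 40, lay within the WT range, within the hTNFtg range and below both. Idi1, which isomerizes isopentenyl diphosphate, was 113, 92 and 129 in WT but 181, 73 and 34 in hTNFtg, so its hTNFtg libraries reached above and below WT, and without hTNFtg replicate 1 it passed the rule (-1.13). Mvd, the mevalonate diphosphate decarboxylase, ranged from 534 to 890 in WT and from 324 to 822 in hTNFtg, and here replicate 3 was the highest of both groups. Mvk, the first kinase of mevalonate, ranged from 151 to 251 in WT and from 143 to 174 in hTNFtg. Fdps, which makes farnesyl diphosphate, ranged from 124 to 199 in WT and from 88 to 194 in hTNFtg, and Acat2, the thiolase of the first step, from 247 to 452 and from 274 to 453.

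Summed over the 7 mevalonate genes, the normalized count was 2974, 2787 and 2988 in WT replicates 1, 2 and 3 and 2161, 2314 and 2134 in hTNFtg, without overlap. Infliximab-treated SFs, at 3317, 2442 and 2159, ran from within the hTNFtg range to above the WT range. The separation rested on Hmgcs1. Without it, the sum of the other 6 was 1417, 1420 and 1960 in WT and 1202, 1277 and 1601 in hTNFtg, and the groups overlapped. Over all 18 sterol synthesis genes the sum was 5583 to 6698 in WT, 4951 to 5248 in hTNFtg and 4240 to 6720 with infliximab, and without Hmgcs1 4086 to 5670 in WT and 3992 to 4699 in hTNFtg. No test was made on these sums, since the members were chosen with results known.

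**Figure D2:**
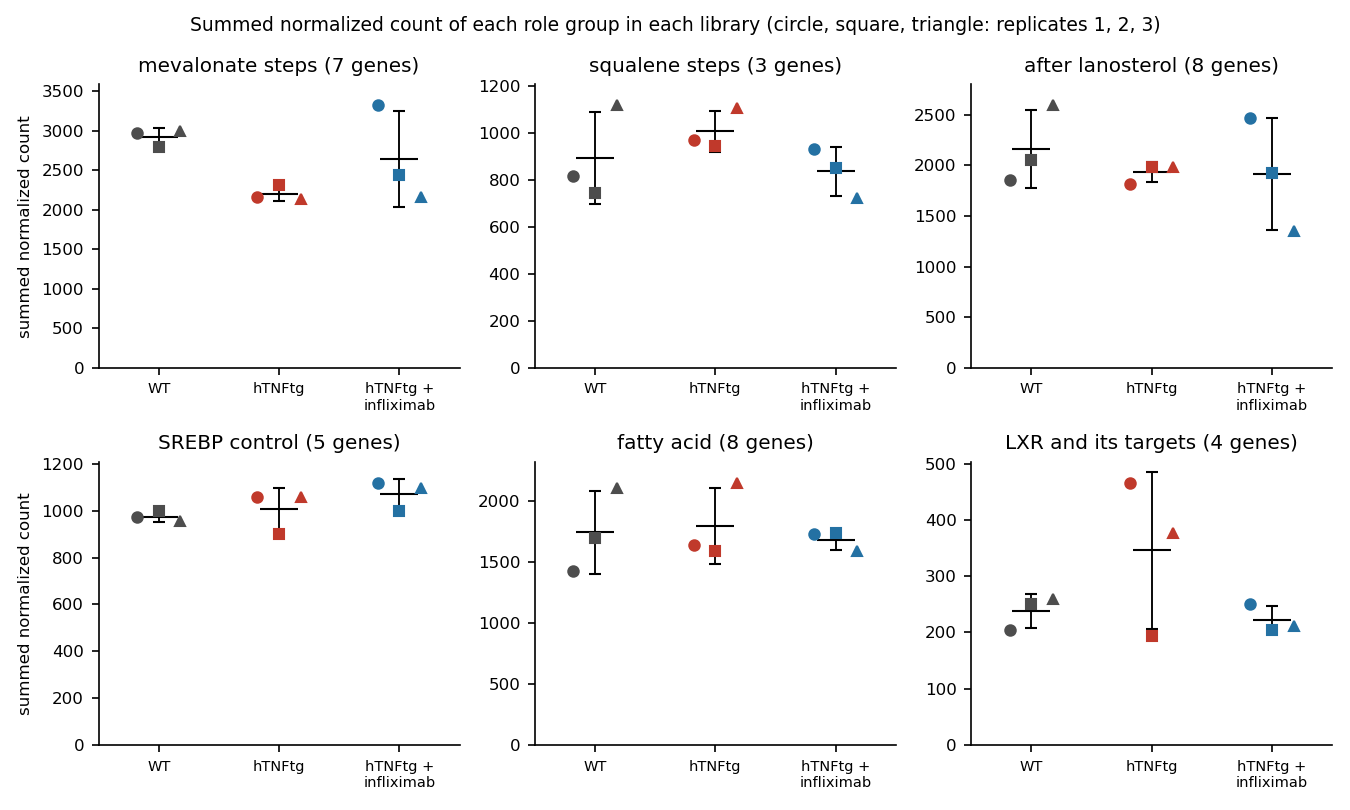
Summed normalized count of each role group in each library. Circles, squares and triangles are replicates 1, 2 and 3, the horizontal bar is the group mean and the error bar 1 SD (n = 3 per group). The mevalonate sum separates WT (2787 to 2988) from hTNFtg (2134 to 2314), and the sums of the other role groups overlap between WT and hTNFtg.

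The squalene genes, which join farnesyl units and close the ring, did not share a direction. Fdft1, squalene synthase, was 414, 314 and 345 in WT, 604, 473 and 335 in hTNFtg and 424, 424 and 447 with infliximab, or 0.36 on the log2 scale (SE 0.31) in hTNFtg versus WT. Sqle, the epoxidase that catalyzes a rate-limiting step, was 325, 366 and 729 in WT and 243, 422 and 759 in hTNFtg, a difference of -0.05 on the log2 scale (SE 0.44). Lss, lanosterol synthase, was 79, 65 and 44 in WT and 125, 50 and 15 in hTNFtg. For Lss the hTNFtg libraries enclosed the WT range on both sides.

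After lanosterol, 4 of 8 genes had a negative log2 fold change, with a median of -0.12. Cyp51, the lanosterol demethylase and an established SREBP2 target, was 817, 817 and 1134 in WT and 579, 831 and 740 in hTNFtg, a difference of -0.36 on the log2 scale (SE 0.31, adjusted p = 0.726 by limma). Nsdhl, a sterol dehydrogenase that removes the C4 groups, had the lowest value of the 8, -0.68 (SE 0.40, adjusted p = 0.726 by limma), from 70, 59 and 82 in WT and 37, 32 and 68 in hTNFtg. Hsd17b7, which acts in the same demethylation, was the highest at 0.47 (SE 0.38), from 62, 82 and 140 in WT and 174, 106 and 104 in hTNFtg. These enzymes of one reaction series thus had opposite signs, and both overlapped between groups. Msmo1, the C4-methylsterol oxidase of that demethylation, and Ebp, Sc5d, Tm7sf2 and Dhcr7, which act on the double bonds of the sterol, lay between -0.24 and 0.18 and overlapped as well.

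**Figure D3:**
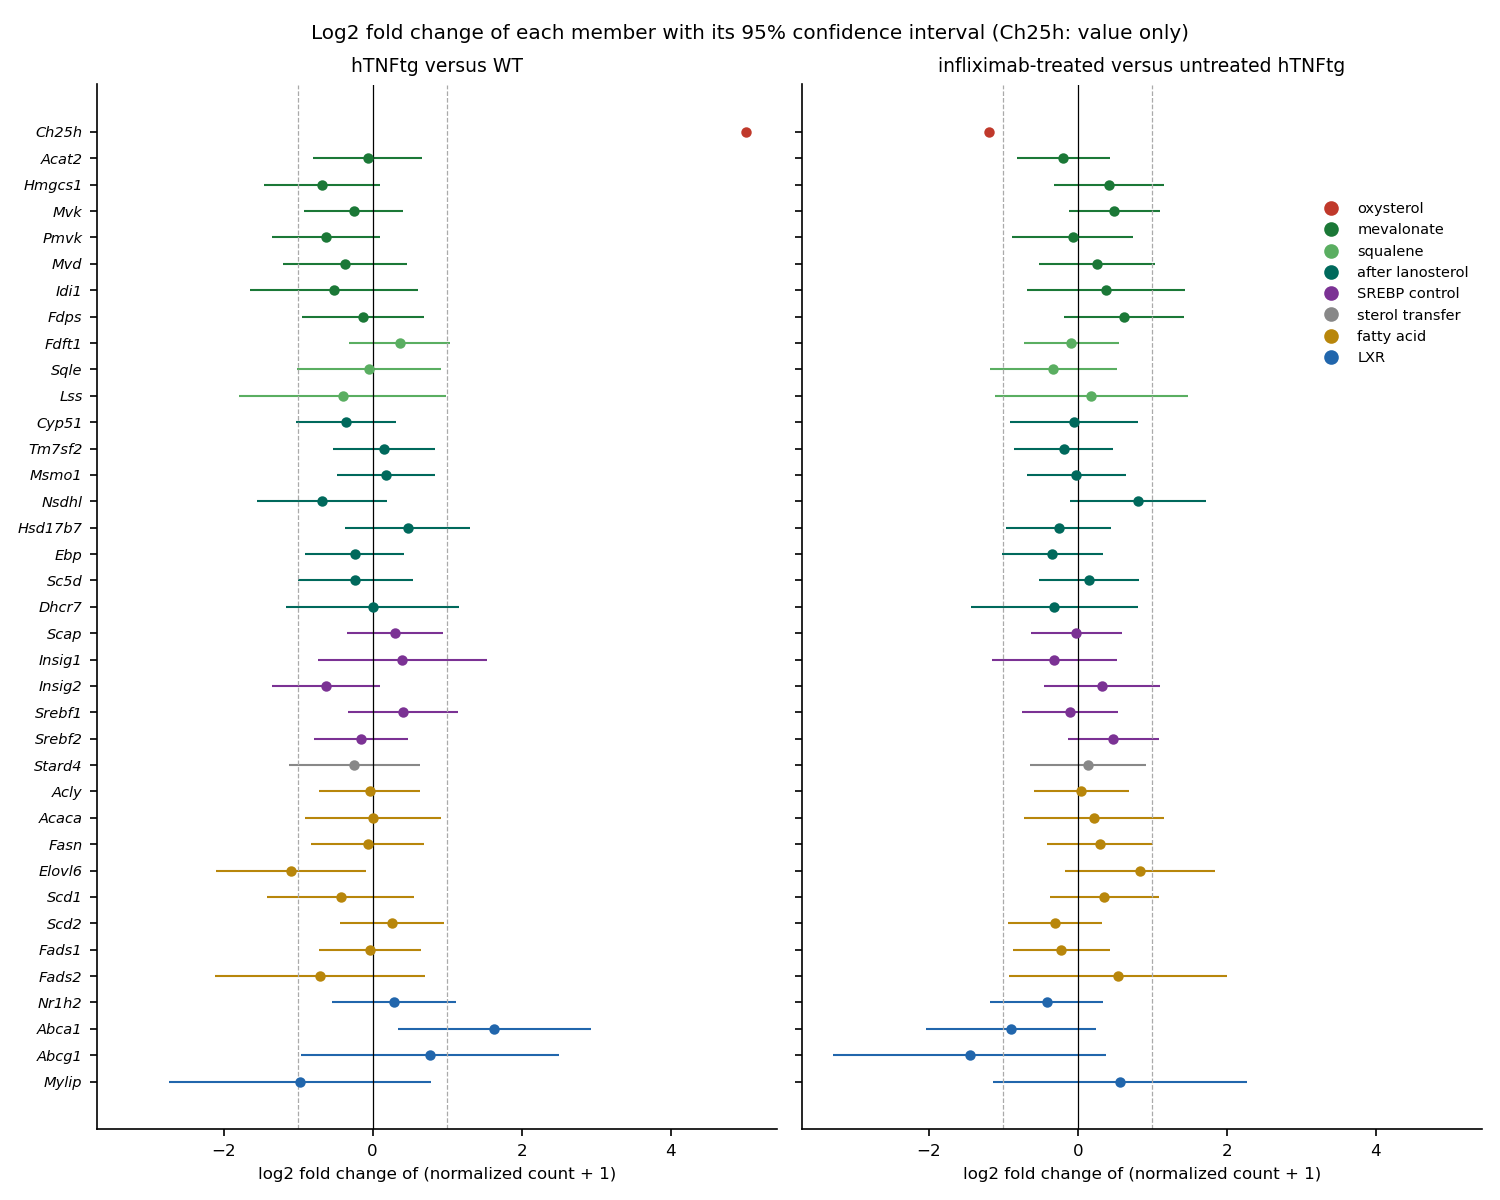
Log2 fold change of (normalized count + 1) for each member, in hTNFtg versus WT on the left and in infliximab-treated versus untreated hTNFtg on the right, colored by role. Lines are 95% confidence intervals from limma (6 libraries per comparison), dashed lines mark a change of 1 in either direction, and Ch25h is drawn as its value only. Ch25h stands at 5.01 and -1.19, while the 18 sterol synthesis genes lie between -0.68 and 0.47 on the left and between -0.34 and 0.81 on the right, each with an interval that includes 0.

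The genes that control SREBP showed no common direction. Insig2, which retains SCAP in the endoplasmic reticulum, was 228, 310 and 260 in WT, 112, 218 and 204 in hTNFtg and 294, 139 and 240 with infliximab. All WT libraries of Insig2 lay above its hTNFtg libraries, a difference of -0.62 on the log2 scale (SE 0.33, adjusted p = 0.726 by limma). Insig1, itself a sensitive SREBP target, was 36, 36 and 116 in WT and 56, 52 and 120 in hTNFtg, with replicate 3 the highest of both groups. Srebf2, which encodes SREBP2, ranged from 221 to 235 in WT, from 174 to 267 in hTNFtg and from 275 to 304 with infliximab. Every infliximab library was above every library of the other 2 groups, while the log2 fold change against untreated hTNFtg was 0.48 (SE 0.28, adjusted p = 0.803 by limma). Srebf1, which encodes SREBP1, was 292, 285 and 181 in WT, 473, 262 and 285 in hTNFtg and 308, 305 and 302 with infliximab. Scap, the escort of SREBP, ranged from 135 to 194 in WT and from 181 to 243 in hTNFtg. Stard4, which carries cholesterol between membranes, ranged from 42 to 100 in WT and from 48 to 56 in hTNFtg.

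Of the 8 fatty acid genes, Elovl6 was lowered in hTNFtg SFs and 7 did not pass the rule. Elovl6, which elongates palmitate to stearate, lies at chr3:129532355-129638495 on the plus strand. Its normalized counts were 89, 60 and 88 in WT, 50, 51 and 18 in hTNFtg and 85, 70 and 46 with infliximab. All hTNFtg libraries lay below all WT libraries, or -1.09 on the log2 scale (SE 0.46, adjusted p = 0.583 by limma), and the adjusted p ranged from 0.451 to 0.831 when each library was left out. The call was lost without WT replicate 1, 2 or 3, with values of -0.996, -1.277 and -1.004, or without hTNFtg replicate 3, at -0.61. Array quality weights also ended it (-0.66), and hTNFtg replicate 1 had only 8 reads on the gene. The adipocyte marker sum was also lowest in hTNFtg replicate 3, at 68, of which 65 was Fabp4. The part of adipocytes in the level of Elovl6 was not tested. Fasn, the fatty acid synthase, was 209, 181 and 269 in WT and 131, 249 and 272 in hTNFtg, a difference of -0.07 on the log2 scale (SE 0.35). Acly and Acaca, which supply cytosolic acetyl-CoA and malonyl-CoA, stood at -0.04 (SE 0.31) and 0.00 (SE 0.41). The stearoyl-CoA desaturases Scd1 and Scd2 are similar copies between which counting could split reads, and are given as uncertain. Scd1 was 88, 163 and 285 in WT and 75, 161 and 138 in hTNFtg, and Scd2 was 603, 778 and 895 in WT and 959, 683 and 1092 in hTNFtg. Fads1 and Fads2, the polyunsaturated fatty acid desaturases, had log2 fold changes of -0.04 (SE 0.31) and -0.70 (SE 0.64), and Fads2 was under the floor of 3 reads in hTNFtg replicate 1, at 6.

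Abca1 was the member raised in hTNFtg SFs among the LXR genes. This exporter of cholesterol to apolipoprotein A-I lies at chr4:53030787-53159895 on the minus strand. Its normalized counts were 20, 29 and 14 in WT, 168, 43 and 37 in hTNFtg and 32, 30 and 42 with infliximab. Every hTNFtg library was above every WT library, and replicate 1 was far above the other 2. The log2 fold change was 1.63 (SE 0.59, adjusted p = 0.425 by limma, 0.304 to 0.815 with each library left out). It was 1.71 with an adjusted p of 0.0222 in edgeR's test on approximate reads. The call was lost without hTNFtg replicate 1 (0.95), WT replicate 1 (1.63) or WT replicate 3 (1.39). The value of 168 in hTNFtg replicate 1 stood for 27 reads, and the same library had the highest macrophage marker sum of all, 6277. Lyz2 made 5356 of that sum. Adgre1, Csf1r and Ptprc were also highest in that library. Among the hTNFtg libraries, Cd68, Cd14 and C1qa were lowest there, and C1qb lay between the others. Macrophages also express Abca1, and their part in this difference was not tested.

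The other LXR genes did not pass the rule. Nr1h2, which encodes LXR-beta, was 129, 188 and 209 in WT and 224, 126 and 326 in hTNFtg. Abcg1, which exports cholesterol to mature lipoproteins, was low, at 3, 4 and 12 in WT, 12, 8 and 10 in hTNFtg and 6, 2 and 2 with infliximab, of which the 12 in hTNFtg replicate 1 stood for 2 reads. Mylip was 52, 30 and 25 in WT and 62, 17 and 4 in hTNFtg, the widest spread within a group of the 36 members other than Ch25h, with its highest library 15.5 times its lowest, and its log2 fold change of -0.97 passed the rule without hTNFtg replicate 1 (-1.88) and was -0.05 without replicate 3.

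Beside the lower Ch25h of infliximab-treated SFs, the 36 other members gave 0 raised and 0 lowered by the rule against untreated hTNFtg SFs, where 1.49% and 0.936% of the 28540 genes tested were. By limma, 0 members and 0.0% of all genes reached an adjusted p under 0.05, and 0 members and 3.59% of all genes reached an unadjusted P under 0.05. By edgeR these were 0 members and 0.578% of all genes, and 1 member and 6.08%. Groups did not overlap for 3 members (Mvk and Srebf2 above, Abcg1 below), where 7.44% of all genes were apart. The 2 comparisons share the untreated hTNFtg libraries, so a high or low value there enters both with opposite sign. Among the 18 sterol synthesis genes 10 had a negative and 8 a positive log2 fold change, with a median of -0.04 and a range of -0.34 to 0.81, beside 47.24% negative and a median of 0.03 among genes with a mean of 10 or more. Their intervals excluded a rise of 1 on the log2 scale in 11 and a fall of that size in 14.

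By role, 5 of the 7 mevalonate genes had a positive log2 fold change with infliximab, with a median of 0.38, and 6 of the 8 genes after lanosterol a negative one, with a median of -0.12. Mvk was 174, 152 and 143 in untreated and 267, 209 and 189 in infliximab-treated SFs, all of the latter above the former (log2 fold change 0.49, SE 0.28, adjusted p = 0.803 by limma). Fdps was 193, 194 and 88 against 317, 243 and 156, with a value of 0.62 (SE 0.37, adjusted p = 0.803 by limma). Nsdhl had the highest value of the sterol synthesis genes, 0.81 (SE 0.42, adjusted p = 0.803 by limma), with 80, 50 and 111 under infliximab, and it passed the rule without hTNFtg replicate 3 (1.13) or infliximab replicate 2 (1.11) and was 0.54 without infliximab replicate 3. Sqle had -0.33 (SE 0.40), with 444, 380 and 234 under infliximab. Elovl6 was 0.84 (SE 0.47) and Abca1 -0.89 (SE 0.53), which passed the rule without hTNFtg replicate 3 (-1.29) and was -0.21 without hTNFtg replicate 1.

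Between infliximab-treated hTNFtg and WT SFs, 0 members were raised and 0 lowered by the rule, where 3.86% and 2.95% of 28243 genes were. Limma's adjusted p was under 0.05 for 0 members and for 0.74% of all genes. Its unadjusted P was under 0.05 for 1 member, Pmvk, at -0.69 (SE 0.30, adjusted p = 0.405), and for 11.9% of all genes. By edgeR 3 members and 13.4% of all genes had an unadjusted P under 0.05, and 0 members and 4.68% of all genes an adjusted p under 0.05. Groups did not overlap for 4 members, all above WT (Fdft1, Srebf1, Srebf2 and Abca1), where 14.2% of all genes were apart. Abca1 was 0.74 (SE 0.36) and Srebf2 0.33 (SE 0.16) above WT on the log2 scale. Ch25h was thus still well above WT after 48 hours of infliximab, while 12 of the 18 sterol synthesis genes had a negative log2 fold change, with a median of -0.12, beside 51.42% and a median of -0.02 among genes with a mean of 10 or more.

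The spread within groups was wide for many members. Within WT SFs the highest library of a member was a median of 1.51 times its lowest, within hTNFtg SFs 1.90 times, and with infliximab 1.49 times, and 15 of the 36 members spanned more than 2 times within hTNFtg. The sterol synthesis genes did not move together there. hTNFtg replicate 1, where Ch25h was highest, held the highest value of 7 of the 18 and the lowest value of another 7. Replicate 3, where Ch25h was lowest, held the highest value of 6 and the lowest of 9. Idi1, Lss, Fdps, Hmgcs1, Elovl6 and Mylip were lowest in replicate 3, whereas Mvd, Sqle and Insig1 were highest there. Counting error in hTNFtg replicate 1, where 7 members had fewer than 10 reads, and its part in this spread were not separated here. In WT SFs 13 of the 18 were highest in replicate 3, and with infliximab 13 were highest in replicate 1.

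**Figure D4:**
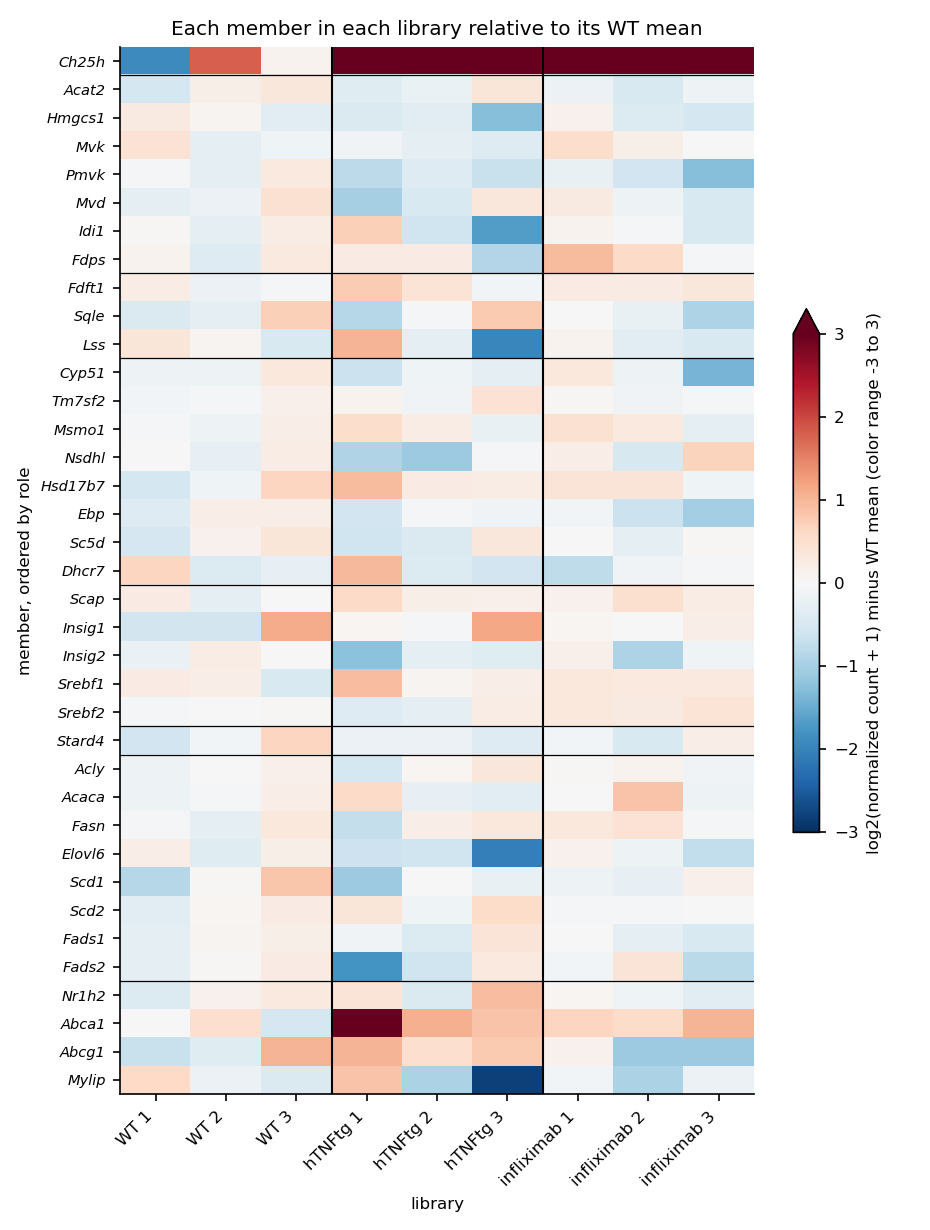
Each member (rows, ordered by role) in each library (columns), as log2(normalized count + 1) minus its WT mean, with red above and blue below. Ch25h is above its WT mean in all 6 hTNFtg libraries, and the synthesis genes show patches of both colors within the hTNFtg group, such as Lss and Idi1 (lowest in replicate 3) against Sqle and Mvd (highest in replicate 3).

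A further 39 genes of the pathway, all found in the tables, were listed beside the members. In hTNFtg versus WT SFs 1 was raised and 3 were lowered by the rule, where 3.35% and 3.04% of all genes were. An unadjusted P under 0.05 was reached by 5, against 7.72% of all genes. Limma's adjusted p was under 0.05 for 0 and edgeR's for 1 (Apoe), against 0.48% and 3.23% of all genes. Of the 39, 5 had all hTNFtg libraries above WT and 3 had all below, where groups were apart for 11.4% of all genes. Among the 13634 genes with a mean of 10 or more, 1284 were above and 1256 below. Gpr183, the receptor for a ligand made from 25-hydroxycholesterol, was raised, at 0, 2 and 0 in WT, 6, 6 and 7 in hTNFtg and 2, 3 and 7 with infliximab (log2 fold change 2.34, SE 0.80, adjusted p = 0.376 by limma). The 6 in hTNFtg replicate 1 is the worth of a single read. Nr1h3, which encodes LXR-alpha, was lowered, from 44, 28 and 46 in WT to 19, 15 and 14 in hTNFtg (log2 fold change -1.23, SE 0.48, adjusted p = 0.515 by limma). It was over the floor of 3 reads in 2 hTNFtg libraries, and its 19 in hTNFtg replicate 1 lay at that floor. In infliximab-treated SFs, at 28, 19 and 8, Nr1h3 was lowered against WT too (-1.19). Apoe, an acceptor of exported cholesterol and an LXR target, was lowered at -1.85 (SE 0.76, adjusted p = 0.559 by limma) with wide spread, from 40, 283 and 412 in WT and 75, 21 and 61 in hTNFtg. Acacb, the mitochondrial acetyl-CoA carboxylase, was lowered at -2.32 (SE 0.91, adjusted p = 0.515 by limma), from 5, 12 and 15 to 0, 1 and 4. In hTNFtg replicate 1, where Acacb stood at 0, 1 read was worth 6.23 normalized counts. Acacb was over the floor of 3 reads in 1 hTNFtg library. Each of these 4 calls was lost without WT replicate 3 or, for the 3 lowered genes, without hTNFtg replicate 2. Nr1h3 was also lost without WT replicate 1, Acacb without WT replicate 2, and Apoe without WT replicate 2, hTNFtg replicate 1 or hTNFtg replicate 3. With each library left out the log2 fold change stayed between 2.08 and 2.87 for Gpr183, -1.45 and -1.10 for Nr1h3, -2.93 and -1.77 for Acacb and -2.87 and -1.20 for Apoe. The call of Apoe was also lost with a minimum mean of 10, with robust eBayes and with all 9 libraries in one fit. Gpr183 and Acacb had means under 10 and were not tested at that minimum.

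The remaining genes of the pathway did not pass the rule in hTNFtg versus WT SFs. Cyp7b1 and Hsd3b7, which convert 25-hydroxycholesterol onward, had log2 fold changes of 0.80 (SE 0.41) and 0.92 (SE 0.47). Infliximab-treated against untreated hTNFtg SFs gave 0 raised and 0 lowered genes of the 39 with limma, where 1.49% and 0.936% of all genes were. An unadjusted P under 0.05 was reached by 4, against 3.59% of all genes. An adjusted p under 0.05 was reached by 0 with limma and by 1 (Apoe) with edgeR, against 0.0% and 0.578% of all genes. Groups did not overlap for 2 genes above and 4 below untreated hTNFtg, where 7.44% of all genes were apart. Among the 13606 genes with a mean of 10 or more, 878 were above and 792 below. Apoe was 32, 25 and 384 with infliximab, so its high value lay in replicate 3 alone, the library with the hepatocyte marker sum of 784, and its log2 fold change in limma was 0.56 (SE 0.82), or -0.68 without that library. Against WT, Gpr183 was raised (1.67) and Nr1h3 lowered in infliximab-treated SFs, where 3.86% and 2.95% of all genes were. By limma 0 of the 39 had an adjusted p under 0.05 and 5 an unadjusted P under 0.05, against 0.74% and 11.9% of all genes. By edgeR 1 (Hsd17b12) had an adjusted p under 0.05, against 4.68%. Groups did not overlap for 4 genes above and 2 below WT, where 14.2% of all genes were apart. Among the 13470 genes with a mean of 10 or more, 1521 were above and 1622 below. The calls of Gpr183 and Nr1h3 were each lost without WT replicate 1, WT replicate 3, infliximab replicate 2 or infliximab replicate 3. That of Gpr183 was also lost with a pseudocount of 5, array quality weights or edgeR, and that of Nr1h3 with array quality weights.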

How the data were processed

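SFs from 3 WT, 3 hTNFtg and 3 infliximab-treated hTNFtg cultures were profiled by QuantSeq 3′ mRNA sequencing on an Ion Proton. According to the labels and methods, the authors mapped reads to mm10 with TopHat2 and Bowtie2, counted them per gene with GenomicRanges and ran DESeq through metaseqR. Versions are not given in the sources used here. The deposited values were taken as a score, namely normalized counts that the authors rounded. In the authors' deposited signal of hTNFtg replicate 1, 100.0% of the values above 0 and up to 20 reads lay within 0.1 read of a whole number of reads, against 1.77 to 52.0% in the other libraries. With values rounded to whole numbers and 6.23 normalized counts to a read, that share was fixed in advance in hTNFtg replicate 1. In the other libraries 1 read was worth less, and rounding alone can break such a match. These shares therefore cannot show whether the libraries differ in kind. The design assumed normalized counts for all libraries and was kept. Columns of the authors' own comparisons (fold changes, p-values) and 12 further per-sample columns with the prefix rpgm were not used. The hTNFtg libraries are identical in both tables and were used once.

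What 1 read is worth was estimated from the gaps between values, and dividing by it gave approximate reads. The estimate and the fits were tested on simulated data. Groups were compared with limma 3.58.1 (lmFit, eBayes with trend) in R 4.3.3 on log2(normalized count + 1), over genes detected in 1 or more of the 6 libraries in a comparison, with Benjamini-Hochberg adjustment over all genes tested. Alternatives were pseudocounts of 5 and 0.5, a minimum mean of 10, median-ratio and quantile scaling, array quality weights, robust eBayes, a replicate block, all 9 libraries in one fit, edgeR 4.0.16 on approximate reads, and leaving out each library. All 37 members are named, and of the 39 other pathway genes those past the rule, with Cyp7b1, Hsd3b7 and Hsd17b12 added after their values were seen. Some of the other pathway genes are counted but not reported here by name. Members, lists, rules and tests were chosen with earlier results of these data known. Promoter windows were matched by symbol to RefSeq.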

Additional observations from a re-analysis of the deposited data

How the results depend on the processing

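No member that passed the rule changed sign under any alternative, whereas some log2 fold changes near 0 that did not pass did. Of the alternative fits of the 36 members other than Ch25h, 1710 kept their side of the rule, 9 lost a call (Elovl6 and Abca1 in hTNFtg versus WT) and 6 gained one. In hTNFtg versus WT, leaving out 1 library gave 0 to 1 raised members and 0 to 3 lowered (Idi1, Elovl6 and Mylip without hTNFtg replicate 1), array quality weights gave 0 lowered, and edgeR gave 1 adjusted call, Abca1. In infliximab-treated versus untreated hTNFtg, array quality weights gave 1 raised member (Nsdhl), and leaving out 1 library gave 0 to 1 raised (Nsdhl) and 0 to 1 lowered (Abca1). In infliximab-treated hTNFtg versus WT the member counts did not change. Of the other pathway genes in hTNFtg versus WT, a minimum mean of 10 gave 0 raised and 1 lowered, array quality weights and edgeR each gave 1 adjusted call (Apoe), and leaving out 1 library gave 1 to 2 raised and 0 to 3 lowered. With infliximab against untreated, array quality weights gave 1 raised (Acacb), edgeR 1 raised and 1 adjusted call (both Apoe), and leaving out 1 library 0 to 1 raised and 0 to 1 lowered. Against WT, pseudocount 5, a minimum mean of 10, array quality weights and edgeR each gave 0 raised, array quality weights 0 lowered, array quality weights, robust eBayes and edgeR each 1 adjusted call (Hsd17b12), and leaving out 1 library 0 to 1 raised and 0 to 1 lowered. Apart from the libraries left out, the causes were not tested. The replicate numbers were not taken as pairs, since deviations of same-numbered libraries correlated at -0.147 to 0.353 over 13600 genes and not every library correlated best with its own number. With the replicate block, 0 members were lowered in hTNFtg versus WT (log2 fold change of Elovl6 -1.09), 2 other pathway genes were lowered there (not Apoe), and 0 other pathway genes were raised and 0 lowered in infliximab-treated hTNFtg versus WT. Depth limits hTNFtg replicate 1 most, in which 3 reads equal 18.7 normalized counts.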
